A study of Mus musculus with 16 samples.

Results

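The miR-183, miR-96 and miR-182 cluster is a set of 3 microRNAs cut from neighbouring hairpins. MicroRNAs (miRNAs) are short RNAs that lower the output of matching messenger RNAs, which they find through a 5′ segment called the seed. The members of the cluster read here were mmu-miR-183-5p, mmu-miR-96-5p and mmu-miR-182-5p, found on the array by their names, and they made up 3 of the 1247 mouse miRNAs it carries. They were chosen on their Th2 differences, since earlier results of these same arrays had shown them lower in cells grown with Th2 cytokines, so that difference is described below without a test, and only the response to interleukin-33 is tested.

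Total RNA came from RAW264.7, a macrophage-like mouse cell line, and each culture was read on 1 single-colour Agilent miRNA array. The group Th2_IL33 was grown for 48 h with 10 ng per ml of the Th2 cytokines, which are interleukin-4 (IL-4) together with interleukin-13 (IL-13). It was then washed and held for 4 h with recombinant murine interleukin-33 (IL-33) at 20 ng per ml. The group Th2 had the same growth with no IL-33. The group Media_IL33 was grown for 48 h in medium alone and then given IL-33 as above, and the group Media had neither agent. Each group held 4 arrays, numbered 1 to 4 for 4 independent experiments, so that 16 arrays were read in all. A culture is read as a whole, so fewer cells carrying a miRNA and less of it per cell cannot be told apart.

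Between 206 and 256 mouse miRNAs were called detected per array by the scanner software, and 178 were detected on all arrays. Signals are given as relative signal, where 1 is an array's 75th percentile over those 178 miRNAs, a level of 427 to 654 intensity units. The myeloid miRNAs miR-223-3p, miR-142a-3p and miR-142a-5p were detected on all 16 arrays and the fourth listed, miR-223-5p, on none, whereas none of 7 listed epithelial miRNAs and none of 6 listed neural or sensory miRNAs was detected on any. The neural or sensory list includes miR-183-3p, which comes from the same hairpin as miR-183-5p. The arrays lay on 2 slides. All 4 Th2_IL33 arrays were on slide 2, with 1 Th2 array, 2 Media_IL33 arrays and 1 Media array, and slide 1 held the other 8.

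The members of the cluster are known for their high levels in sensory organs such as the retina and the inner ear, where all of them are made from a shared primary transcript. In mouse T cells, miR-182 is induced by cytokine signalling and represses Foxo1, a transcription factor that restrains activation. In human cancer cells the repressor ZEB1 lowers miR-183 along with the miR-200 family. IL-4 and IL-13 act on macrophages mainly through the transcription factor STAT6, and IL-33 acts through the receptor ST2 on NF-κB.

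The mature sequences show why the members are treated as a family. They are taken from RefSeq (GRCm38.p6), run 5′ to 3′, and carry the seed, bases 2 to 8, in capitals.
miR-183-5p: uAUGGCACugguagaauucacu
miR-96-5p: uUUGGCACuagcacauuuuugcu
miR-182-5p: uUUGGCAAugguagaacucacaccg
Each of the 3 has its own seed. With positions counted from 1 at the 5′ end and the first-named member's base given first, the seed of miR-183-5p differs from that of miR-96-5p by A2U, and from that of miR-182-5p by A2U and C8A. The seed of miR-96-5p differs from the seed of miR-182-5p by C8A. Over the whole miRNA, seed included, the likeness is uneven: aligned from their 5′ ends, miR-183-5p and miR-182-5p share 18 of 22 bases, miR-183-5p and miR-96-5p share 13 of 22, and miR-96-5p and miR-182-5p share 12 of 23.

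All 3 lie on the minus strand of mouse chromosome 6. In GRCm38.p6, miR-183-5p is at chr6:30169711-30169732, miR-96-5p at chr6:30169506-30169528 and miR-182-5p at chr6:30165962-30165986. The Mir183 hairpin (70 bases) and the Mir96 hairpin (106 bases) are 116 bases apart, and the Mir182 hairpin (75 bases) follows 3453 bases further downstream. The hairpins lie inside the long noncoding RNA gene Mirc35hg (chr6:30158640-30174125), between the protein-coding genes Nrf1 (chr6:30047985-30153458) and Ube2h (chr6:30211289-30304539). Exons of Mirc35hg were not used here.

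The promoter window of Mirc35hg is printed because the 3 members lie in this host gene. It covers chr6:30174076-30174375 on the minus strand, from 250 bases before the start to 50 after it, and 70.3% of its bases are G or C. Motif matches are in capitals.
Mirc35hg promoter: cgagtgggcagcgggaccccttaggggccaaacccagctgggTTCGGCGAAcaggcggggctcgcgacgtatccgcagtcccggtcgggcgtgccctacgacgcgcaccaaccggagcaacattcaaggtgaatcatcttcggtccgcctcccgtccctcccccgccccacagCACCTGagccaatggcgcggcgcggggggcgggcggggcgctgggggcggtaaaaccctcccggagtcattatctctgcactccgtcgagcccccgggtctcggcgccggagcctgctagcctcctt
The window was searched on both strands for 3 motifs. The STAT-type letters TTCNNNNGAA had 0 matches, and 6.95% of 32851 mouse promoters of this length hold a match. The STAT-type letters TTCNNNGAA had 1 match (8.3% of promoters hold it), and the E-box CACCTG, the letters that ZEB1 is known to bind, had 1 match (20.2% of promoters). The 2 matches did not overlap.

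Each member was read by 2 probes of different length, with 20 spots per probe on each array. The probe sequences show which part of each miRNA was read. They are given 5′ to 3′ as deposited, complementary to the 3′ part of the miRNA, with the extra base of the longer probe in capitals.
miR-183-5p shorter probe: agtgaattctaccagtgc
miR-183-5p longer probe: agtgaattctaccagtgcC
miR-96-5p shorter probe: agcaaaaatgtgctagtgcca
miR-96-5p longer probe: agcaaaaatgtgctagtgccaA
miR-182-5p shorter probe: cggtgtgagttctac
miR-182-5p longer probe: cggtgtgagttctacC
The probes of miR-183-5p (18 and 19 bases) pair with its bases 5 to 22 and 4 to 22, and those of miR-96-5p (21 and 22 bases) with bases 3 to 23 and 2 to 23. Those of miR-182-5p (15 and 16 bases) pair with bases 11 to 25 and 10 to 25, so they do not touch its seed. The longest unbroken run in which a probe matched another member of the cluster was 8 bases, for the probes of miR-183-5p. Matches that continue past a mismatch were not counted, and miR-183-5p and miR-182-5p share 18 of 22 bases. Binding of a probe to another member was not tested.

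All 3 members stood close to the array's background, and all were lower in Th2-grown cells than in medium-grown cells, with or without IL-33. The mean relative signal of miR-182-5p was 0.0184 ± 0.0184 in Th2_IL33 cells and 0.0827 ± 0.0194 in Media_IL33 cells (SD, n = 4 each). That of miR-96-5p was 0.0481 ± 0.0178 in Th2_IL33 cells and 0.117 ± 0.0313 in Media_IL33 cells (SD, n = 4 each). For miR-183-5p the means were 0.0175 ± 0.0119 and 0.0521 ± 0.00604 in the same 2 groups (SD, n = 4 each). Values under a floor of 0.0353, the 1st percentile of detected signals, were set to it before any log2 was taken, so log2 differences understate a change that reaches below the floor.

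miR-182-5p, the member studied in T cells as a repressor of Foxo1, was under the floor on most Th2-grown arrays. Its relative signal in experiments 1 to 4 was 0.00671, 0.0108, 0.0102 and 0.0458 on the Th2_IL33 arrays. On the Media_IL33 arrays it was 0.0602, 0.0787, 0.0844 and 0.107. Every Th2_IL33 array lay below every Media_IL33 array. Without IL-33 it was 0.00961, 0.00359, 0.00467 and 0.0424 on the Th2 arrays, and 0.0638, 0.0838, 0.0484 and 0.131 on the Media arrays. Here too the groups did not overlap, and in both Th2-grown groups 3 of 4 arrays were at the floor while experiment 4 stood above it. The scanner software called miR-182-5p detected on 1 of 4 Th2_IL33 arrays, 4 of 4 Media_IL33 arrays, 1 of 4 Th2 arrays and 4 of 4 Media arrays.

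miR-96-5p, the member whose seed mutations cause hearing loss in mice and humans, lay near the floor on most Th2-grown arrays. It read 0.0385, 0.0369, 0.0422 and 0.0746 on the Th2_IL33 arrays of experiments 1 to 4, and 0.0878, 0.117, 0.103 and 0.160 on the Media_IL33 arrays. On the Th2 arrays it read 0.0345, 0.0353, 0.0329 and 0.0716, and on the Media arrays 0.116, 0.101, 0.0755 and 0.177. Neither pair of groups overlapped, although Th2 experiment 4 (0.0716) and Media experiment 3 (0.0755) were close. It was detected on 2 of 4 Th2_IL33 arrays and 1 of 4 Th2 arrays, and on all 8 medium-grown arrays.

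miR-183-5p, which gives the cluster its name, had the fewest arrays with a detection call. It read 0.0157, 0.00640, 0.0136 and 0.0344 on the Th2_IL33 arrays of experiments 1 to 4, and 0.0456, 0.0530, 0.0498 and 0.0599 on the Media_IL33 arrays. These groups did not overlap. On the Th2 arrays it read 0.0113, 0.0149, 0.0121 and 0.0359, and on the Media arrays 0.0483, 0.0460, 0.0275 and 0.0628. These groups overlapped, since Th2 experiment 4 was above Media experiment 3. It was detected on 0 of 4 Th2_IL33 arrays, 4 of 4 Media_IL33 arrays, 0 of 4 Th2 arrays and 2 of 4 Media arrays.

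**Figure D1:**
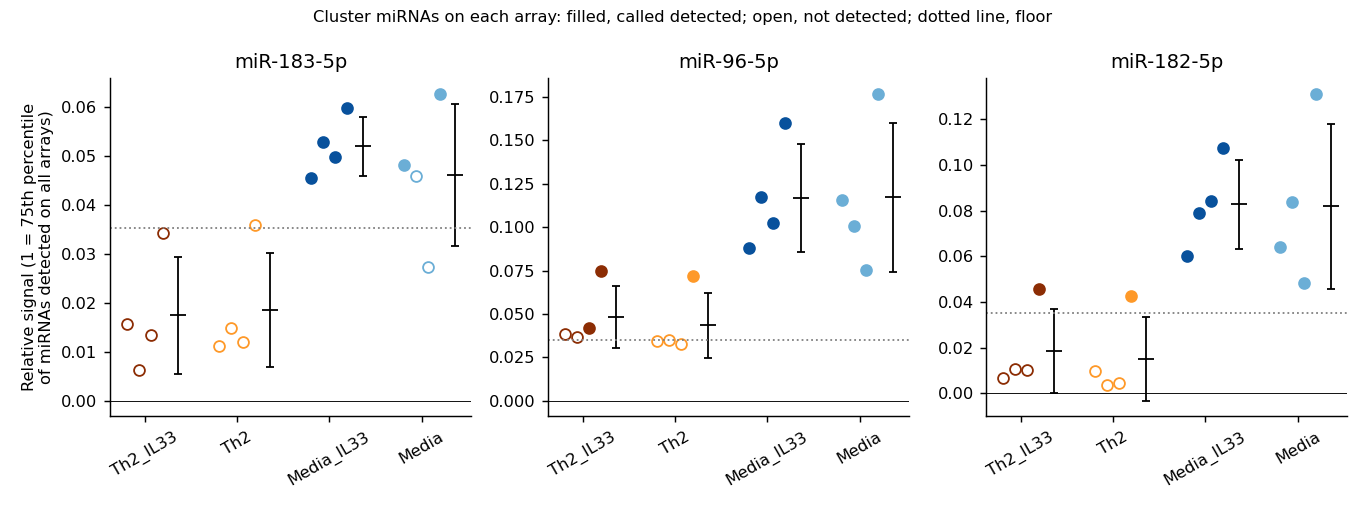
Relative signal of each member (vertical axis, linear, 1 = 75th percentile of the miRNAs detected on all arrays) on each of 4 arrays per group, in the order of experiments 1 to 4, filled where the scanner software called the miRNA detected; bars are mean ± SD and the dotted line is the floor of 0.0353. The Th2_IL33 arrays lie below the Media_IL33 arrays in all panels, and the Th2 and Media arrays overlap for miR-183-5p.

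The count of members whose groups did not overlap was 3 of 3 between Th2_IL33 and Media_IL33 and 2 of 3 between Th2 and Media. Among the 231 miRNAs tested (each detected on every array of some group), every Th2_IL33 array lay below every Media_IL33 array for 4 (1.73%) and every Th2 array lay below every Media array for 4 (1.73%), members included. Within experiments, all 3 members were lower in Th2_IL33 than in Media_IL33 in 4 of 4 experiments, and lower in Th2 than in Media in 4 of 4. For miR-183-5p in experiment 3, both Th2 (0.0121) and Media (0.0275) were under the floor and not detected, so that order compares background values. Over the tested miRNAs 11.3% were lower in all 4 experiments in the comparison with IL-33 and 10.8% in the one without. The members entered the tested set through the medium-grown groups in which they are high, miR-183-5p through Media_IL33 alone, so these counts describe the choice of the members and no weight is placed on them.

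On the log2 scale with the floor, the difference Th2_IL33 minus Media_IL33 was -1.10 ± 0.25 for miR-182-5p, -1.31 ± 0.31 for miR-96-5p and -0.55 ± 0.14 for miR-183-5p (SE, n = 4 each). The difference Th2 minus Media was -1.05 ± 0.25 for miR-182-5p, -1.41 ± 0.31 for miR-96-5p and -0.41 ± 0.14 for miR-183-5p (SE, n = 4 each). The order of the members on this scale, with miR-96-5p furthest from 0, depended on the floor: with the floor lowered to 0.25 of its value miR-182-5p came furthest, at -2.48 with IL-33 and -2.52 without. Over the 231 tested miRNAs the median difference was 0.080 with IL-33 and 0.063 without. The limma fit called 3 of 231 miRNAs lower with IL-33 (1.3%) and 2 of 231 lower without it (0.866%) at an adjusted p under 0.05, and no p is given for the members.

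The difference can also be stated against a background level, since most dim values were not well above background. A miRNA counts as well above background on an array where at least 1 of every 2 spots of any of its probes was so marked. miR-182-5p was well above background on 0 of 4 Th2_IL33 arrays and 4 of 4 Media_IL33 arrays, and on 0 of 4 Th2 arrays and 4 of 4 Media arrays. A dim array not above background was credited with the lowest well-above-background signal of any miRNA on it, or its own signal if higher. So reckoned, miR-182-5p was 1.79-fold lower in Th2_IL33 than in Media_IL33 and 1.52-fold lower in Th2 than in Media. No sampling error was computed for these folds, and they are not strict bounds. miR-96-5p was well above background on 0 of 4 Th2_IL33 arrays and 4 of 4 Media_IL33 arrays, and was 2.18-fold lower in Th2_IL33 when reckoned so. On 1 of 4 Th2 arrays and 3 of 4 Media arrays it was above background, and with the other Th2 arrays set to that lowest signal it was 1.95-fold lower in Th2. miR-183-5p was well above background on 0 of 4 Th2_IL33, 1 of 4 Media_IL33, 0 of 4 Th2 and 1 of 4 Media arrays, and no fold is given for it.

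The 2 probes of each member moved the same way. For miR-182-5p the longer probe averaged 12.0 intensity units in Th2_IL33 and 48.3 in Media_IL33, and 11.3 in Th2 and 42.7 in Media, while its shorter probe averaged -2.67 in Th2_IL33 and 3.03 in Media_IL33, and -3.40 in Th2 and 2.14 in Media. The means of the shorter probe lay near 0 in all groups, so the difference between groups for miR-182-5p rests mainly on the longer probe. For miR-96-5p both probes carried signal: the longer averaged 16.6 in Th2_IL33 and 47.6 in Media_IL33, and the shorter 8.65 in Th2_IL33 and 25.2 in Media_IL33. For miR-183-5p the longer probe averaged 7.95 in Th2_IL33 and 23.9 in Media_IL33, and the shorter 0.992 in Th2_IL33 and 8.57 in Media_IL33.

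Counts of spots well above background show the same pattern without any scaling. Each probe had 80 spots per group (20 on each of 4 arrays), which are repeats within arrays and not replicates. For the longer probe of miR-182-5p the scanner marked 8 of 80 in Th2_IL33, 78 of 80 in Media_IL33, 7 of 80 in Th2 and 63 of 80 in Media. For the longer probe of miR-96-5p it marked 9 in Th2_IL33, 73 in Media_IL33, 10 in Th2 and 57 in Media. For the longer probe of miR-183-5p it marked 0 in Th2_IL33, 31 in Media_IL33, 0 in Th2 and 25 in Media. The 926 miRNAs detected on no array had 0.0999% to 1.87% of their spots so marked per array.

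**Figure D2:**
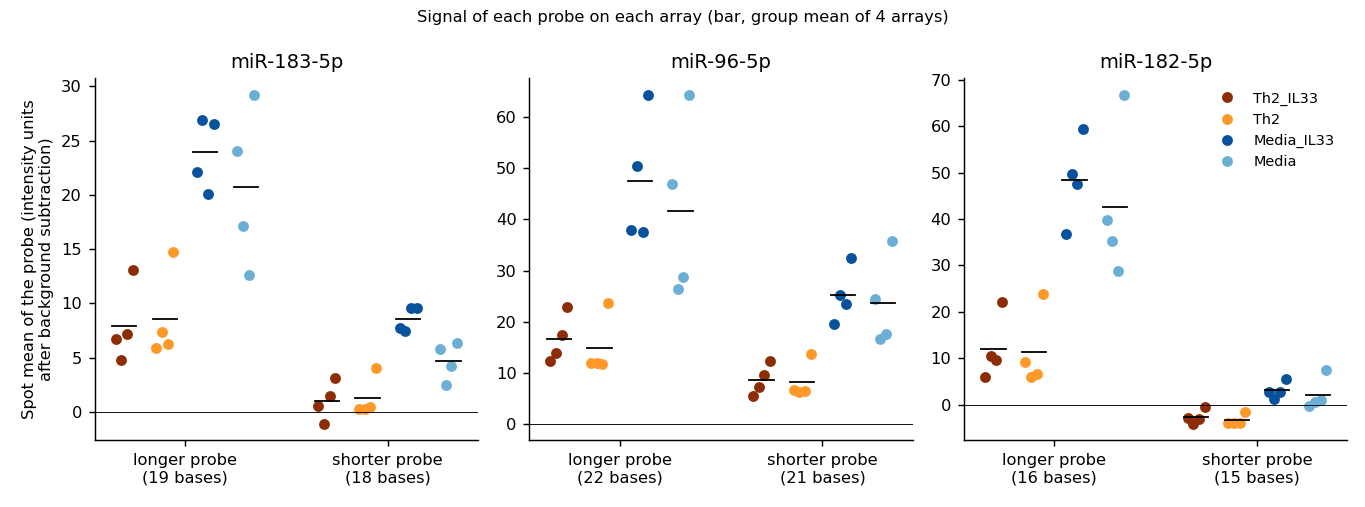
Mean spot signal of the longer and the shorter probe of each member on each array (vertical axis, intensity units after background subtraction, linear), with bars at the group mean of 4 arrays. The longer probe of miR-182-5p averages 12.0 in Th2_IL33, 48.3 in Media_IL33, 11.3 in Th2 and 42.7 in Media, while its shorter probe stays near 0 in all groups.

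Experiment 4 gave the highest relative signal of its group for every member, in 4 of 4 groups. On the log2 scale its mean deviation from the group means was 0.16 for miR-183-5p, 0.65 for miR-96-5p and 0.42 for miR-182-5p. The same held for 16 of the 231 tested miRNAs (6.93%), members included. The experiment 4 arrays of Th2_IL33 and Th2 were on slide 2 and those of Media_IL33 and Media on slide 1, so its high values were on both slides. Without the 4 arrays of experiment 4, the log2 difference Th2_IL33 minus Media_IL33 was -1.06 for miR-182-5p, -1.38 for miR-96-5p and -0.48 for miR-183-5p, and Th2 minus Media was -0.85, -1.44 and -0.28 for the same miRNAs in that order.

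**Figure D3:**
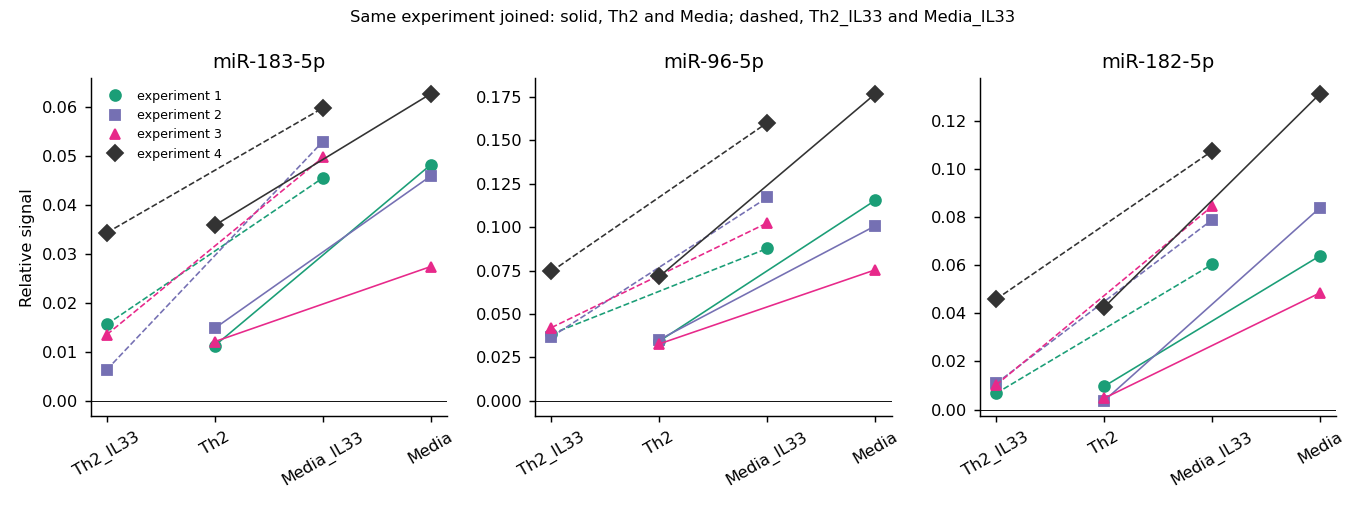
Relative signal of each member (vertical axis, linear) in every group, with arrays of the same experiment joined between Th2_IL33 and Media_IL33 (dashed) and between Th2 and Media (solid). Every line is lower at its Th2-grown end, and experiment 4 is the highest point in each group.

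Within slide 2, the only slide that holds Th2_IL33 arrays, Th2_IL33 minus Media_IL33 (4 arrays against 2) was -0.87 for miR-182-5p, -1.14 for miR-96-5p and -0.48 for miR-183-5p on the log2 scale. Th2 minus Media within slide 1 (3 arrays against 3) was -1.20 for miR-182-5p, -1.64 for miR-96-5p and -0.40 for miR-183-5p. Within slide 2 (1 array against 1) it was -0.59, -0.69 and -0.43 for those miRNAs in the same order. Th2 minus Media had the same direction on both slides.

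The 3 members varied together across the arrays. The Pearson correlation of their floored log2 levels over the 16 arrays was 0.96 between miR-183-5p and miR-182-5p, 0.95 between miR-96-5p and miR-182-5p and 0.89 between miR-183-5p and miR-96-5p. With group means removed it was 0.89, 0.80 and 0.67 for those pairs. The arrays share their groups, their experiments and their scaling, and each member's signal is low, so these values are given as a description. Binding of a probe to another member, which was not tested, could also enter them.

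The question tested was whether IL-33 changed the cluster, a contrast that the choice of members did not rest on. No member passed the test in any IL-33 comparison. In medium-grown cells the log2 difference Media_IL33 minus Media was 0.085 ± 0.25 for miR-182-5p (SE, n = 4 each, 95% interval -0.45 to 0.62, limma adjusted p = 1). For miR-96-5p it was 0.030 ± 0.31 (interval -0.64 to 0.70), and for miR-183-5p 0.14 ± 0.14 (interval -0.17 to 0.45), both with limma adjusted p = 1. miR-183-5p entered the tested set through Media_IL33, the higher group of this contrast, so its value is read as a description. The means for miR-182-5p were 0.0827 ± 0.0194 in Media_IL33 and 0.0818 ± 0.0359 in Media (SD, n = 4 each). The intervals come from the fit without pairing by experiment, and leave room for a change of either sign. A change within them cannot be told from none. With the experiment as a block the SE for miR-182-5p was 0.18, against 0.25. In this comparison 4 of 231 miRNAs (1.73%) passed, all higher with IL-33, and no member was among them. Within experiments, Media_IL33 was below Media in 3 of 4 for miR-182-5p, and in 2 of 4 for miR-96-5p and for miR-183-5p. The sign of these differences was not stable: leaving out Media 3 gave -0.13 for miR-182-5p, -0.16 for miR-96-5p and -0.0012 for miR-183-5p, and leaving out Media 4 gave 0.34 for miR-182-5p.

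In Th2-grown cells the difference Th2_IL33 minus Th2 was 0.027 ± 0.25 for miR-182-5p (interval -0.51 to 0.57), 0.13 ± 0.31 for miR-96-5p (interval -0.55 to 0.80) and -0.0063 ± 0.14 for miR-183-5p (interval -0.32 to 0.30), each with limma adjusted p = 1. For miR-183-5p all 4 Th2_IL33 arrays and 3 of 4 Th2 arrays were at the floor, and for miR-182-5p 3 of 4 in either group, so these arrays hold little information on a change there. miR-96-5p was higher in Th2_IL33 than in Th2 in 4 of 4 experiments, by 0.13, 0.062, 0.26 and 0.058, as were 11.7% of the tested miRNAs. With the experiment as a block its difference was 0.13 ± 0.14 (SE, limma adjusted p = 1). Relative signals of Th2_IL33 were below Th2 in 1 of 4 experiments for miR-182-5p and in 2 of 4 for miR-183-5p. Here 4 of 231 miRNAs (1.73%) passed, with no member among them. Over both growth conditions the mean IL-33 difference was 0.056 ± 0.18 for miR-182-5p, 0.078 ± 0.22 for miR-96-5p and 0.066 ± 0.10 for miR-183-5p, each with limma adjusted p = 0.997, and 5 of 231 miRNAs (2.16%) passed.

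The interaction, that is (Th2_IL33 minus Th2) minus (Media_IL33 minus Media), was -0.057 ± 0.35 for miR-182-5p, 0.097 ± 0.44 for miR-96-5p and -0.14 ± 0.20 for miR-183-5p, each with limma adjusted p = 0.995. No miRNA of the 231 passed (0%), and 5 had an unadjusted p under 0.05. For miR-183-5p and miR-182-5p most Th2-grown arrays were at the floor, which holds the Th2_IL33 minus Th2 part near 0. The miR-183-5p value also rests on Media_IL33, the group through which it entered the tested set. Both limits also hold for the mean over both growth conditions. The values of miR-183-5p and miR-182-5p are therefore read as a description. The IL-33 comparisons share arrays with the Th2 comparisons above. The slides bear on them too: within slide 2, Th2_IL33 minus Th2 (4 arrays against 1) was -0.17 for miR-182-5p, -0.64 for miR-96-5p and -0.025 for miR-183-5p, and that single Th2 array was experiment 4. Media_IL33 minus Media was 0.23 for miR-182-5p, 0.21 for miR-96-5p and 0.23 for miR-183-5p within slide 1 (2 arrays against 3), and 0.11, -0.19 and 0.026 in the same order within slide 2 (2 arrays against 1).

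**Figure D4:**
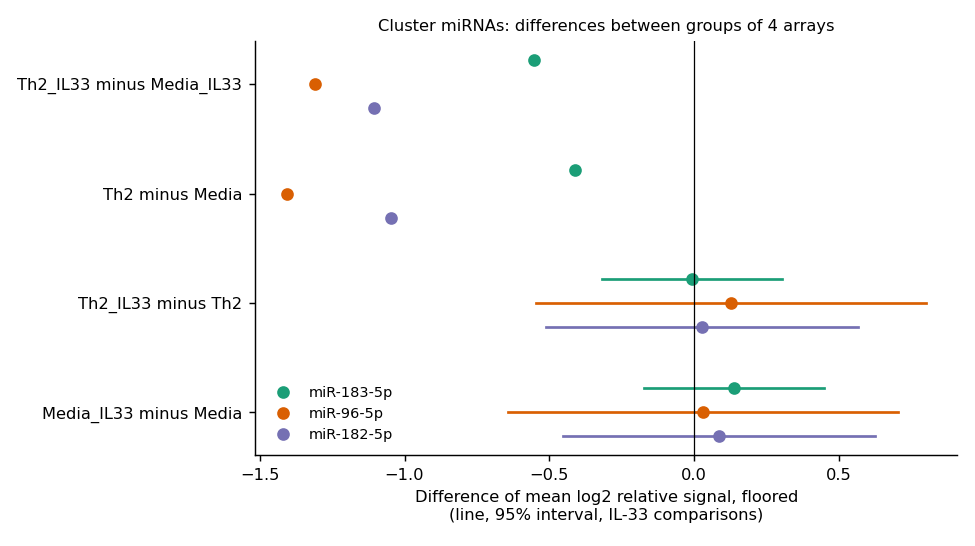
Difference of mean floored log2 relative signal (horizontal axis) between groups of 4 arrays for each member; the IL-33 comparisons carry 95% intervals, and the Th2 comparisons, on which the members were chosen, carry none. All IL-33 intervals include 0, and the points of both Th2 comparisons lie between -1.41 and -0.41.

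Ordered by mean relative signal, each member had its medium-grown groups above its Th2-grown groups, and the neighbours within each growth condition lay within their spread. For miR-183-5p the order was Media_IL33 (0.0521), Media (0.0461), Th2 (0.0186) and Th2_IL33 (0.0175). For miR-96-5p it was Media (0.117), Media_IL33 (0.117), Th2_IL33 (0.0481) and Th2 (0.0436). For miR-182-5p it was Media_IL33 (0.0827), Media (0.0818), Th2_IL33 (0.0184) and Th2 (0.0151).

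The opposite (3p) arms of the same hairpins, miR-183-3p, miR-96-3p and miR-182-3p, were detected on none of the 16 arrays and lay under the floor on all of them, so they give no second reading of the cluster. Nor was there a relative outside the cluster to compare: miR-1271-5p, which shares the miR-96-5p seed, was not among the mouse miRNAs named on the array.

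Genes related to the cluster by repressor or by target were read from lists. The miRNAs that ZEB1 is known to repress in human cancer cells, miR-200a-3p, miR-200b-3p, miR-200c-3p, miR-141-3p, miR-429-3p and miR-203-3p, were all on the array and 6 of 6 were detected on none. Their summed relative signal was 0.0111 to 0.0336 in Th2_IL33, 0.0332 to 0.0464 in Media_IL33, 0.0140 to 0.0419 in Th2 and 0.0309 to 0.0445 in Media. With none detected, no level can be stated for them in these cells. All of them are also on the epithelial list above, so this is not a second reading.

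Of 6 other miRNAs known, mainly from human cells, to target FOXO1, 3 were tested and the other 3 (miR-9-5p, miR-370-3p and miR-135a-5p) were detected on no array. miR-223-3p, a myeloid miRNA, was higher in Th2-grown cells, by 1.08 ± 0.24 on the log2 scale for Th2_IL33 minus Media_IL33 (SE, n = 4 each, limma adjusted p = 0.00687) and by 1.13 ± 0.24 for Th2 minus Media (limma adjusted p = 0.00495). miR-27b-3p was higher in Th2 than in Media, by 0.68 ± 0.20 (limma adjusted p = 0.0415). Its difference Th2_IL33 minus Media_IL33 was 0.62 ± 0.20 (limma adjusted p = 0.0717). miR-27a-3p differed by 0.34 ± 0.16 with IL-33 (limma adjusted p = 0.249) and by 0.37 ± 0.16 without (limma adjusted p = 0.169). So 1 of 3 tested list members was higher with IL-33, where 8.23% of all tested miRNAs were, and 2 of 3 without IL-33, where 8.66% were. The list was chosen with earlier results of these data known. Its Th2 counts and p-values are therefore a description and not a test of the list. None was lower, none of the 3 passed for IL-33, and the list's median difference was 0.62 with IL-33 and 0.69 without. The mean relative signals of miR-223-3p were 0.876 in Th2_IL33, 0.408 in Media_IL33, 0.980 in Th2 and 0.444 in Media.

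The miRNAs whose levels over the 16 arrays were most like the mean of the members were named by Pearson correlation among 228 others. miR-7a-5p came first (r = 0.89), then miR-19a-3p (0.83), miR-466f-5p (0.75), miR-574-5p (0.75) and miR-18a-5p (0.75). With group means removed, the values were 0.70 for miR-7a-5p, 0.64 for miR-19a-3p, 0.37 for miR-466f-5p, 0.76 for miR-574-5p and 0.51 for miR-18a-5p. miR-7a-5p differed by -0.41 for Th2_IL33 minus Media_IL33 and by -0.36 for Th2 minus Media. It was picked by its likeness to members chosen on these differences, so no p is given for it.

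The 3 miRNAs at the other end were miR-511-3p (r = -0.85), miR-223-3p (-0.85) and miR-362-5p (-0.85). miR-511-3p, whose hairpin lies within Mrc1, the gene of the macrophage mannose receptor, was 2.81 ± 0.10 higher on the log2 scale for Th2_IL33 minus Media_IL33 and 2.73 ± 0.10 higher for Th2 minus Media (SE). miR-362-5p was 1.98 ± 0.10 higher with IL-33 and 1.88 ± 0.10 higher without (SE). With group means removed these correlations were 0.37 for miR-511-3p, -0.39 for miR-223-3p and 0.40 for miR-362-5p, so for miR-511-3p and miR-362-5p the sign turned. These correlations are descriptive, since the arrays share groups, experiments and scaling. The miRNAs named by them were picked for their relation to members chosen on their Th2 differences. Their own Th2 differences follow in part from that pick, so no p is given for them here, and those of miR-223-3p above are a description.

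The size of the Th2 difference depended on how dim signals were treated, and its direction did not in the settings tried. With the scanner software's own total gene signal, Th2_IL33 minus Media_IL33 was -1.92 for miR-182-5p, -2.29 for miR-96-5p and -1.26 for miR-183-5p. With normexp background correction and quantile normalization together, it was -0.28, -0.31 and -0.16 in the same order. There an offset of 50 was added to every spot before the probes of a miRNA were summed and the log2 taken.

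**Figure D5:**
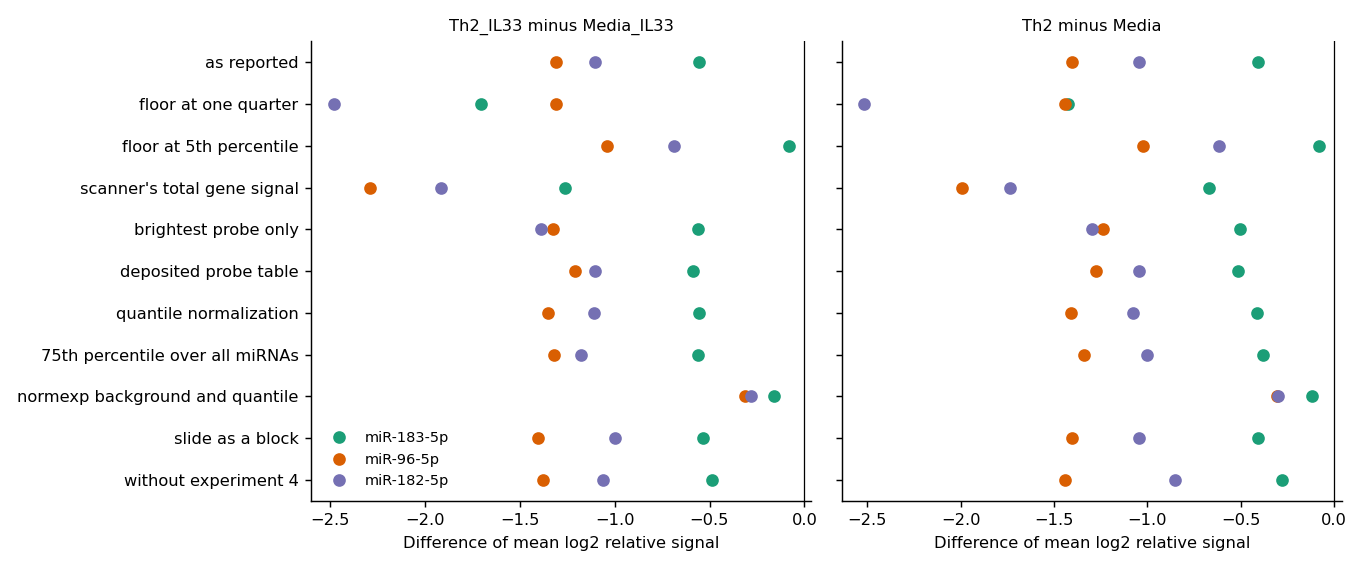
Difference of mean log2 relative signal (horizontal axis) of each member for Th2_IL33 minus Media_IL33 (left) and Th2 minus Media (right) under 11 processing settings (vertical axis). All points lie below 0, between -2.52 and -0.081.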

How the data were processed

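The deposited scanner files hold intensity values per spot from Agilent Feature Extraction 10.7.3.1, already corrected by the authors' scanner software for background and spatial trend, per the file headers. They were not normalized across arrays. A probe table that the authors deposited beside them was made with Partek 6.6 and RMA, per the submitters' processing notes. Its 3105 probes rank as the spot means of each column's own array (Spearman correlation 1), with every column's median at 0.428. Every column reaches 114686, too high for log values, so the table is read as linear, and 23296 of its values are below 0.

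Control and outlier spots were left out (2040 to 3929 of 49880 mouse spots per array), spots were averaged per probe, probes were summed per miRNA, and signals were scaled by the 75th percentile that the 178 miRNAs detected everywhere had on that array. Values were floored at 0.0353 (log2 of -4.82) before log2. No spot was saturated. limma 3.58.1 in R 4.3.3 was fitted with 1 mean per group over 16 arrays (12 residual degrees of freedom), with Benjamini-Hochberg adjustment over 231 miRNAs, after a test on simulated data. Precision is limited by the number of arrays.

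The members and lists were chosen with earlier results of these data known. The named miRNAs are the members, their 3p arms, the 5 most and 3 least like them by correlation, and at most 4 detected miRNAs per list. The labels number the arrays of each group, and equal numbers were read as the same independent experiment, which pairs the arrays. Over all tested miRNAs the deviations of same-numbered arrays had a median correlation of 0.11 (24 pairs, 14 of them over 0.1), against -0.048 for other pairs (72). Alternatives changed the scaling, background, floor, summary, block, weights and arrays used. The alternative without the arrays of experiment 4 was added after the data were seen.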

Additional observations from a re-analysis of the deposited data

Results flagged for a closer look

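In 5 of the 12 sets of 4 arrays (3 members in 4 groups), 1 array lay far from the other 3, by the ratio of its gap to the range of the set (above Dixon's 95% critical value). In all 5 that array was experiment 4 of a Th2-grown group. In Th2_IL33 the relative signals were 0.0746 for miR-96-5p and 0.0458 for miR-182-5p. In Th2 they were 0.0716 for miR-96-5p, 0.0424 for miR-182-5p and 0.0359 for miR-183-5p. Chance flags about 1 in 20 such sets, and the 3 members share their arrays, so the 5 are not separate events. Most of the other values in these sets were at or near the floor. The cause was not tested.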

How the results depend on the processing

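Th2_IL33 minus Media_IL33 kept its direction for every member in all 31 settings tried, and Th2 minus Media in all 32. Sizes moved with the treatment of dim signals. For miR-182-5p, miR-96-5p and miR-183-5p in that order, normexp with quantile normalization gave -0.28, -0.31 and -0.16 with IL-33 and -0.30, -0.31 and -0.12 without. In the same order, the scanner's total gene signal gave -1.92, -2.29 and -1.26 with IL-33 and -1.74, -1.99 and -0.67 without. A floor at 0.25 of its value gave miR-182-5p -2.48 with IL-33 and -2.52 without, and miR-183-5p -1.70 and -1.43. A floor at the 5th percentile gave miR-182-5p -0.69 and -0.62, and miR-183-5p -0.084 and -0.081. For Th2 minus Media, array weights gave -1.57, -1.99 and -0.67 in the order above. Without Media 1, Media 3 and Th2_IL33 2, which stood apart in earlier results, miR-182-5p was at -1.50 and miR-183-5p at -0.60. Within slide 2 (1 array against 1) miR-182-5p was at -0.59 and miR-96-5p at -0.69. Leaving out each array in turn, Th2_IL33 minus Media_IL33 ranged from -1.25 to -0.97 for miR-182-5p, -1.54 to -1.15 for miR-96-5p and -0.62 to -0.48 for miR-183-5p, and Th2 minus Media from -1.27 to -0.79, -1.66 to -1.18 and -0.55 to -0.27. Th2_IL33 minus Th2 for miR-96-5p was -0.64 within slide 2 (4 arrays against 1). No member passed for IL-33 in any of 30 refits, but the differences changed sign: over all settings Media_IL33 minus Media ran from -0.39 to 0.34 for miR-182-5p, -0.34 to 0.50 for miR-96-5p and -0.10 to 0.59 for miR-183-5p, each lowest with array weights. Th2_IL33 minus Th2 ran from -0.17 to 0.22, -0.64 to 0.38 and -0.046 to 0.060 in that order. Leaving out each array in turn, Media_IL33 minus Media ran from -0.13 to 0.34, -0.16 to 0.25 and -0.0012 to 0.28. With the replicate block, miR-182-5p was at -1.10 ± 0.18 (SE) with IL-33 and -1.05 ± 0.18 without, every other difference of a member was also unchanged, and the pairing changed no call of a member. With this block 3 miRNAs passed for IL-33 in Th2-grown cells, against 4 without it, and 7 over both conditions, against 5. Counts of miRNAs passing for IL-33 in Th2-grown cells fell to 2 with the percentile over all miRNAs, the deposited table, normexp with quantile normalization, or without experiment 4, against 4 as reported. In medium-grown cells the count was 2 without the 3 arrays named above, against 4. Over both conditions it was 3 (deposited table, quantile) or 8 (brightest probe, without Media replicate 4), against 5, and for the interaction 1 with array weights, against 0. The scanner's total gene signal moved the median of all tested miRNAs for Media_IL33 minus Media to 0.16, against 0.023. A fit to all 1247 miRNAs could not be fitted usefully, since 866 have no spread after the floor. Signal over background limits all 3 members.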
